A study of Mus musculus with 18 samples.

Results

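Ribosome profiling (Ribo-seq) was compared between cerebral cortices of embryonic day 15.5 (E15.5) mice lacking Fto and those of wild-type controls. The comparison used 6 of the 18 libraries of the series: 3 from Fto f/f mice carrying Emx1-Cre (F-cKO) and 3 from wild-type mice (Ctrl). Of the 54838 gene rows in the Ribo-seq count table, the 14348 with a value in all 9 Ribo-seq columns were kept. The remaining libraries, RNA-seq of the same genotypes and both assays of Mettl3 f/f mice carrying Emx1-Cre (M-cKO), were used only where named.

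Both groups were labelled C57BL/6, although the floxed lines were of mixed background per the study's methods. The Fto allele loses exon 3 on recombination. Emx1-Cre acts in the progenitors of the dorsal telencephalon and their descendants, so blood vessels, meninges, microglia and interneurons that migrate in from the ventral telencephalon keep Fto. The study's methods describe biological replicates of mouse brain and name 3 cortical samples for Ribo-seq in terms that may mean a single litter. Whether a library held 1 cortex or several is not given in the sources used here.

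Fto is a dioxygenase that removes the methyl group of N6-methyladenosine (m6A), a common internal mark of mRNA, and it also acts on the related mark next to the cap. m6A is placed by a nuclear writer complex around Mettl3 and Mettl14, and it is read by proteins such as the Ythdf family, which influence the decay and translation of marked mRNA. In Ribo-seq, RNase digests most RNA that a ribosome does not cover, so the counts of an mRNA reflect both its level and its ribosome load. Messenger RNAs of secreted and membrane proteins are translated on ribosomes docked at the endoplasmic reticulum (ER), those of cytosolic and nuclear proteins mostly on free ribosomes.

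One library stood apart before any group comparison. Over 10088 protein-coding genes above 5 CPM (the counts of a gene scaled to library size), the log2 ratio of a Ctrl library to the other Ctrl libraries had an SD between 0.179 and 0.235. Against the mean of all 3 Ctrl libraries, the SD was 0.162 in F-cKO 3, 0.419 in F-cKO 1 and 0.997 in F-cKO 2. The reference thus held more libraries for F-cKO than for Ctrl, so the SDs of the groups are not strictly comparable. F-cKO 2 had 1599 genes more than 2-fold above Ctrl and 677 more than 2-fold below, or 22.6% of the genes, where F-cKO 3 had 0.129% and F-cKO 1 had 2.2%. Total counts were 35853227, 30081796 and 31570596 in Ctrl and 20564223, 10973699 and 32954317 in F-cKO, so F-cKO 2 was also the shallowest. Values are therefore given for each library, and the main results with and without F-cKO 2. In the Ctrl libraries the labelled tissue was matched by its markers. Among them Neurod6 had 873, 881 and 1112 CPM, and Tbr1, a transcription factor of deep-layer neurons, had 574, 555 and 522 CPM. Over 18 genes of excitatory neurons the median log2 ratio to Ctrl was -0.3, -0.42 and 0.09 in F-cKO 1, 2 and 3.

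The targeted gene was low in every F-cKO library. Fto (chromosome 8, 91313367 to 91668433, GRCm38) had 274.9, 233.0 and 187.8 CPM in the Ctrl libraries and 40.3, 25.5 and 42.9 CPM in the F-cKO libraries, with no overlap between the groups. The mean was 231.9 ± 43.6 CPM (SD, n = 3) in Ctrl and 36.2 ± 9.36 CPM (SD, n = 3) in F-cKO, or 15.6% of Ctrl. An exact two-sided permutation test gave p = 0.1, the smallest value that 3 against 3 libraries allow. Across all genes, edgeR's quasi-likelihood test gave a log2 fold change of -2.67 (SE 0.25) with an adjusted p of 0.35, and DESeq2 gave an adjusted p of 5.33e-16. Without F-cKO 2, Fto fell by 2.48 on the log2 scale (SE 0.18, edgeR adjusted p 0.0358), and the remaining F-cKO libraries averaged 41.6 ± 1.88 CPM (SD, n = 2), 17.9% of Ctrl.

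In the RNA-seq libraries of the same genotypes, Fto fell by 1.21 on the log2 scale (SE 0.33, edgeR adjusted p 0.0298). It had 142.3, 147.7 and 110.5 CPM in Ctrl and 42.7, 99.0 and 31.9 CPM in F-cKO, so RNA-seq F-cKO 2 was nearest to Ctrl. The mean was 43.3% of Ctrl in RNA-seq, against 15.6% in Ribo-seq, and the difference between the assays was not tested. Counts were taken over whole genes, the gene overlaps the lncRNA 4831440D22Rik, and cells outside the Emx1 lineage were in the tissue. How far each of these made up the remaining counts was not tested. Over the 4 tested neighbours of Fto on its chromosome, the median log2 fold change was 0.01 with 6 libraries and 0.03 without F-cKO 2. Among them, Rpgrip1l, which adjoins the Fto promoter, had 0.29 (SE 0.16) with 6 libraries and 0.31 (SE 0.14) without F-cKO 2.

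**Figure D1:**
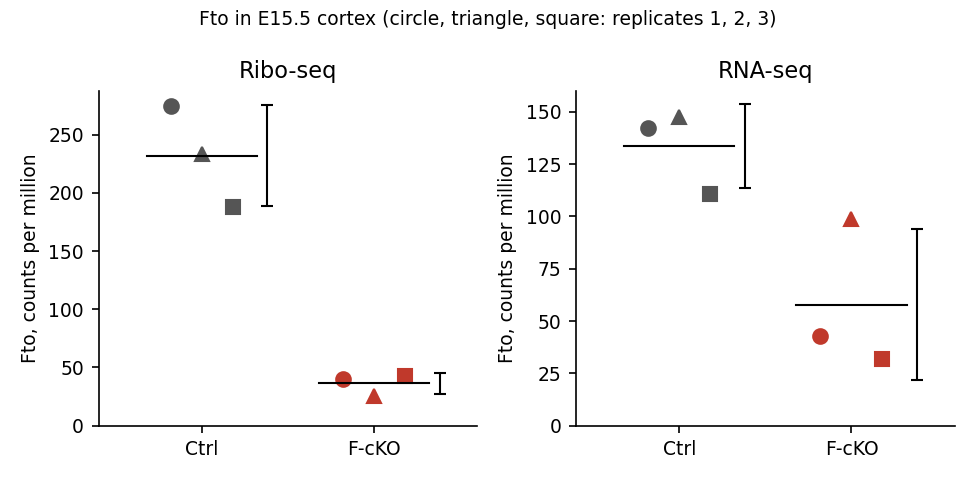
Fto in CPM in each Ctrl and F-cKO library, in Ribo-seq (left) and RNA-seq (right). Lines are means, bars are SDs (n = 3 libraries), and circles, triangles and squares are replicates 1, 2 and 3. The F-cKO Ribo-seq libraries sit at 25.5 to 42.9 CPM, all below the lowest Ctrl library at 187.8 CPM.

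Across all genes, edgeR made no call with the 6 libraries, and DESeq2 made few. Of 14335 genes tested, 0 (0.0%) had an adjusted p below 0.05 with edgeR. At an unadjusted p below 0.05, 227 genes were higher (1.58%) and 91 were lower (0.635%) in F-cKO. DESeq2 called 6 genes (0.0423% of 14200): Fto was lower, and the small nuclear RNA (snRNA) genes Gm25360, Gm26110 and Gm22973, the embryonic globin gene Hbb-y and Wdfy1 were higher. Without F-cKO 2, edgeR called 1 gene of 14336 (0.00698%), Fto. At an unadjusted p below 0.05, 339 genes were then higher (2.36%) and 218 lower (1.52%), and DESeq2 called 39 genes (0.272%).

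The width of the intervals shows what the comparison could resolve. With all 6 libraries the median SE of the log2 fold change over the 10088 protein-coding genes was 0.22, and 68.9% of them had a 95% interval lying wholly within 2-fold of no change. Without F-cKO 2 the median SE was 0.16, and this share was 92.8%. The median interval reached 0.536 to either side of the estimate on the log2 scale with all 6 libraries and 0.384 without F-cKO 2. In RNA-seq of the same genotypes, edgeR called 1955 of 16944 genes higher (11.5%) and 1621 lower (9.57%), and whether the effect of the genotype differs between the assays was not tested.

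The share of footprints from proteins made at the ER was several times larger in F-cKO 2 than in any other Ribo-seq library. This was the pattern for which the library had been singled out, so its values are a description. Taking 7 lists together (ER chaperones, the translocon and its partners, lysosomal enzymes, secreted and matrix proteins, adhesion and guidance receptors, GPI-anchored proteins and plasma membrane solute carriers), their 237 genes took 0.692%, 0.768% and 0.737% of protein-coding footprints in Ctrl. They took 0.689%, 4.19% and 0.759% in F-cKO 1, 2 and 3, and between 0.781% and 0.875% in the M-cKO libraries. The F-cKO mean exceeded the Ctrl mean by 1.15 percentage points, and without F-cKO 2 it differed by -0.00852 points.

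RNA-seq showed no such library. There, the same lists, with 236 genes counted, took 3.17% to 3.23% of protein-coding counts in Ctrl and 3.13% to 3.16% in F-cKO. On the log2 scale, the median ratio of Ribo-seq CPM to Ctrl RNA-seq CPM over these genes was -2.26, -2.15 and -2.06 in the Ctrl libraries, -2.38 in F-cKO 1 and -2.14 in F-cKO 3, and 0.21 in F-cKO 2. The median over 9966 protein-coding genes lay between -0.28 and -0.24 in each library. Ribosomal proteins of the large subunit, whose mRNAs are also low in footprints for their level, had a median ratio between -2.51 and -2.14 in every library, F-cKO 2 included. So in the other libraries ER-list genes were sparse in footprints relative to mRNA, and in F-cKO 2 they were not. Across all 9966 of these protein-coding genes, Pearson's r between Ribo-seq and Ctrl RNA-seq was 0.768 for F-cKO 2 and between 0.666 and 0.704 for the other 5 libraries, as a description across genes, which are not independent.

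**Figure D2:**
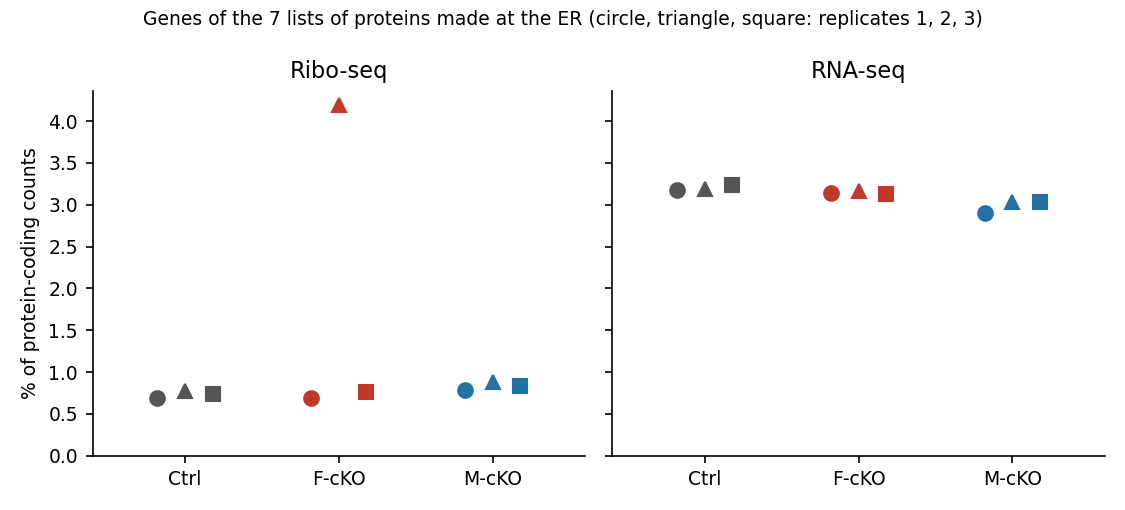
Percent of protein-coding counts taken by the genes of the 7 lists of proteins made at the ER, in each Ribo-seq library (left) and RNA-seq library (right) of Ctrl, F-cKO and M-cKO. Each point is 1 library, with circles, triangles and squares for replicates 1, 2 and 3. Ribo-seq F-cKO 2 stands at 4.19%, all other Ribo-seq libraries lie below 1%, and all RNA-seq libraries lie between 2.9% and 3.23%.

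Single genes show the size of the pattern. Calr, a calcium-binding lectin chaperone of the ER, had 88.8, 102 and 119 CPM in Ctrl and 148, 989.6 and 122 CPM in F-cKO 1, 2 and 3. Hspa5, the ER Hsp70 chaperone BiP, had 62.4, 71.3 and 84.8 CPM in Ctrl and 98.6, 608 and 78.4 CPM in F-cKO. Reln, the secreted glycoprotein that guides cortical layering, had 47.9, 54.7 and 54.7 CPM in Ctrl and 43, 834 and 57.1 CPM in F-cKO. In each of these genes F-cKO 2 alone was far above the rest. Their 6-library fits had wide errors accordingly: the log2 fold change of Reln was 2.57 with SE 1.14 in all 6 libraries and -0.07 with SE 0.16 without F-cKO 2.

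In F-cKO 2, 207 of the 237 genes were more than 2-fold above the Ctrl mean, where 19.6% of all genes tested were. F-cKO 2 was the highest of the 6 libraries for 228 of them, against 35.2% of all genes. The median log2 ratio to Ctrl was 2.34 over the lists and -0.01 over all genes. Sorted by relative transcript length into 4 groups of like size, from short to long, the medians were 2.11, 2.36, 2.31 and 2.61. One gene was more than 2-fold below Ctrl in F-cKO 2, where 7.53% of all genes were. Only 5 of the 237 genes lay below the Ctrl mean, and they are named after their values were seen: Npy, Selenof, Slc7a11, Cd24a and Bdnf. Npy, a secreted neuropeptide, had 23.8, 23.1 and 34.4 CPM in Ctrl and 11.7 CPM in F-cKO 2. Selenof, a selenoprotein of the ER lumen, had 206, 187 and 121 CPM in Ctrl and 90.2 CPM in F-cKO 2.

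The lists ranked as follows in F-cKO 2. The 50 adhesion and guidance receptors had a median log2 ratio of 2.69 with 49 above 2-fold. Among them the endocytic receptor Lrp1 had 96.4, 94.3 and 97.3 CPM in Ctrl and 81.1, 963 and 102 CPM in F-cKO. Ncam1, the neural cell adhesion molecule, had 184, 185 and 199 CPM in Ctrl and 942 CPM in F-cKO 2. The 34 lysosomal genes had a median of 2.5 with 32 above 2-fold, led in level by Psap, the precursor of the saposins, at 79.8, 82.8 and 88 CPM in Ctrl and 821 CPM in F-cKO 2. Lysosomal enzymes reach their organelle through the ER, and all 34 had their highest level of the 6 libraries in F-cKO 2.

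The 27 ER chaperones and folding enzymes had a median log2 ratio of 2.43 in F-cKO 2, with 23 above 2-fold, and the 49 secreted and matrix proteins had 2.42 with 43 above. Among the secreted proteins, the proteoglycan Vcan had 47.2, 58.5 and 67.5 CPM in Ctrl and 675 CPM in F-cKO 2. The 30 plasma membrane solute carriers had a median of 2.19, with 26 above 2-fold. Slc38a2, an amino acid transporter, had 104, 109.9 and 94.4 CPM in Ctrl and 550.0 CPM in F-cKO 2. The 23 genes of the translocon, signal peptidase and oligosaccharyltransferase, themselves mostly ER membrane proteins, had a median of 2.02. Rpn2, a subunit of the oligosaccharyltransferase, had 29.4, 30.2 and 28.6 CPM in Ctrl and 219 CPM in F-cKO 2. The lowest of the 7 was the GPI-anchored list, with a median of 1.18 and 15 of 24 genes above 2-fold. It ran from Cntn2, the axonal adhesion protein TAG-1, with 100.1, 109.7 and 109 CPM in Ctrl and 969 CPM in F-cKO 2, to Cd24a, a very short precursor, with 118, 115 and 133 CPM in Ctrl and 100.5 CPM in F-cKO 2.

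Proteins of the same pathway that are made in the cytosol were not high in F-cKO 2. COPI and COPII coat subunits, cytosolic proteins that shape vesicles leaving the Golgi and the ER, had a median log2 ratio of -0.5 in F-cKO 2, with 0 of 20 above 2-fold and 19 at their lowest of the 6 libraries, where 38.3% of all genes were. Copa had 709, 693 and 666 CPM in Ctrl and 689, 489 and 705 CPM in F-cKO. The signal recognition particle and its receptor alpha subunit had a median of -0.3, with 1 of 8 above 2-fold: Srpr, the receptor subunit, had 14.9, 18.9 and 14.6 CPM in Ctrl and 35.4 CPM in F-cKO 2. Tail-anchored proteins, which enter membranes after translation has ended, had a median of -0.36 with 0 of 40 above 2-fold. Vapa, a tail-anchored protein of the ER, had 404, 394 and 394 CPM in Ctrl and 246 CPM in F-cKO 2. Slc25 carriers, multi-span proteins imported into mitochondria from the cytosol, had a median of -0.05, against 1.81 for the 106 solute carriers of all other families.

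Gene families taken by symbol instead of by list ranged as widely. In F-cKO 2 the median log2 ratio was 3.51 over 6 laminins, 3.48 over 7 integrins, 2.52 over 5 frizzleds, 2.4 over 15 collagens, 2.19 over 15 semaphorins and 1.87 over 24 protocadherins. It was 1.14 over 103 Tmem genes, with 56 above 2-fold, 1.00 over 25 potassium channel genes and 0.89 over 8 GABA-A receptor subunits, with 4 above 2-fold. It was -0.21 over Zfp genes, -0.49 over Rab genes and -0.5 over mitochondrial ribosomal protein genes. In F-cKO 3 the median of each family lay within 0.14 of 0. The 13 mRNAs of the mitochondrial genome, translated inside the organelle, had 8 in the table. Of these, 7 were more than 2-fold higher in F-cKO 2, with a median of 2.14, and they took 0.0243% of its footprints. RNA-seq called 9 of the 13 lower in F-cKO and none higher, where 9.57% of all genes were called lower. mt-Nd5, a subunit of complex I, had 3.89, 7.92 and 6.12 CPM in Ctrl and 21, 94.4 and 6.76 CPM in F-cKO.

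Most lists of cytosolic and nuclear proteins were lower in F-cKO 2 on this scale. Their 281 genes together took 13.4% to 14.7% of protein-coding footprints in Ctrl and 13.3%, 8.93% and 14.9% in F-cKO. The median log2 ratio in F-cKO 2 was -0.46 over 31 proteasome subunits, -0.47 over 70 nuclear-encoded respiratory chain subunits, -0.43 over 32 proteins of the small ribosomal subunit, -0.0 over 46 proteins of the large subunit and -0.98 over 30 tubulins, actins and other cytoskeletal genes. Tubb2b, a neuronal beta-tubulin, had 6553, 5213 and 4807 CPM in Ctrl and 4242, 1355 and 6290.5 CPM in F-cKO, so it was low in F-cKO 2 and also below Ctrl in F-cKO 1. These negative values depend on the scale. When libraries were scaled to the cytosolic and nuclear lists, the median over all genes in F-cKO 2 moved from -0.01 to 0.42, the COPI and COPII median from -0.5 to -0.07 and the ER-list median from 2.34 to 2.77, so the sign of small differences in this library is not fixed by the data.

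**Figure D3:**
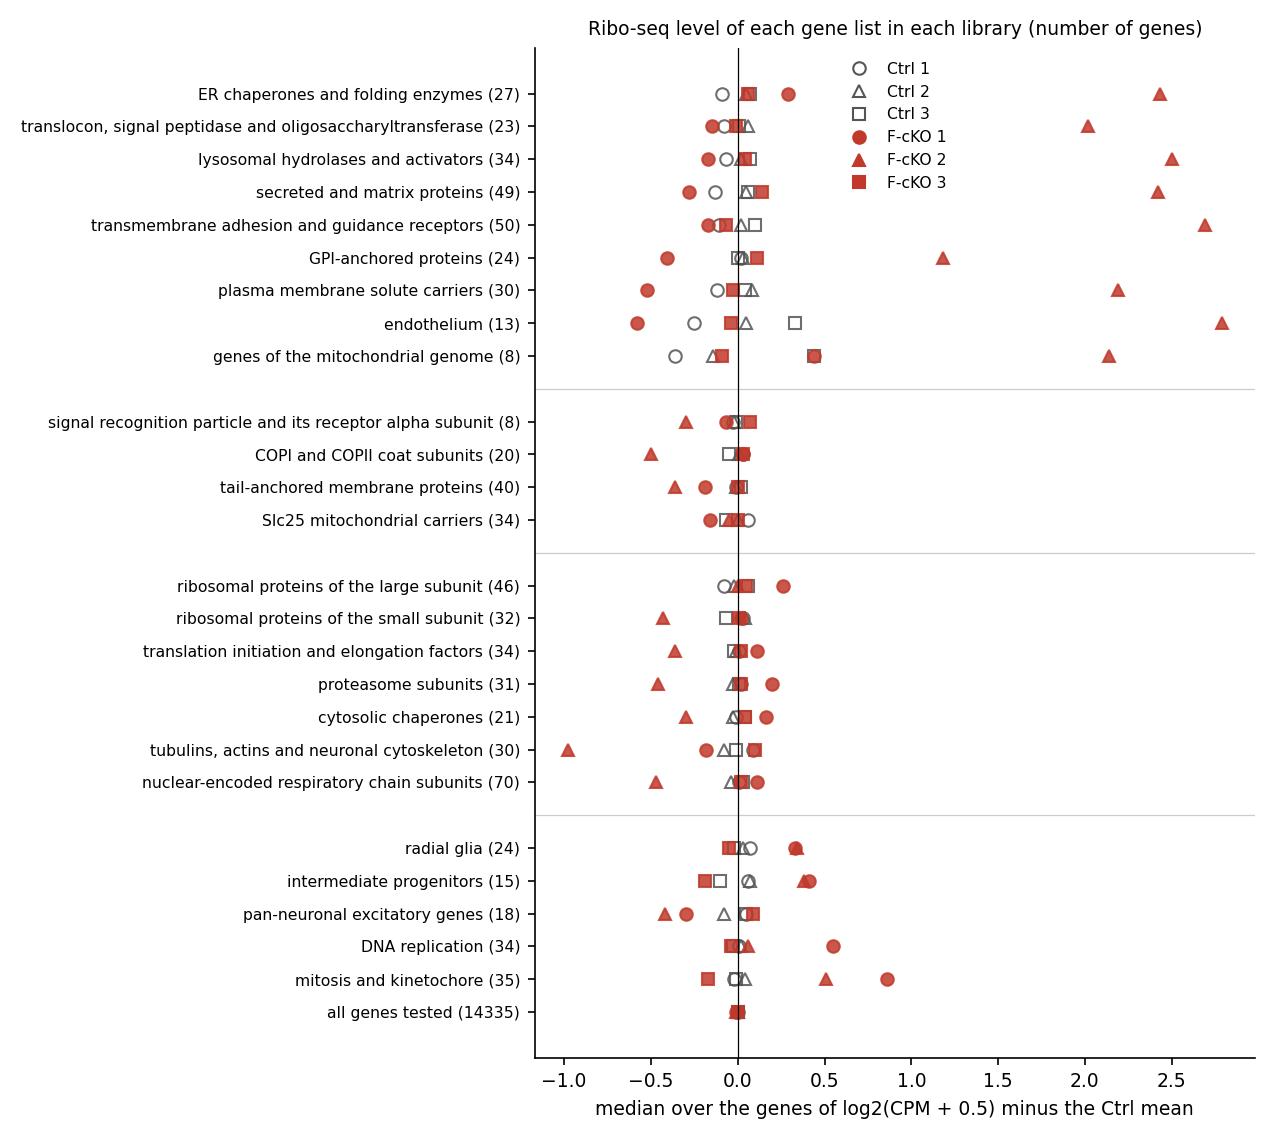
Median over the genes of each list of the log2 ratio of CPM to the Ctrl mean (0.5 CPM added), one point for each Ribo-seq library, with the number of genes in parentheses. Hollow symbols are Ctrl, filled symbols F-cKO, and circles, triangles and squares are replicates 1, 2 and 3. F-cKO 2 lies between 1.18 and 2.79 in the top group of lists and at or below 0 in the next 2 groups, and F-cKO 1 is highest for mitosis and DNA replication.

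Lists of markers for cell types outside the Emx1 lineage were mixed in F-cKO 2. Endothelial genes, most of them for membrane proteins, were more than 2-fold higher in F-cKO 2 for 13 of 13 genes. Their summed level was 36.8 to 54.1 CPM in Ctrl, 26.0 and 45.3 CPM in F-cKO 1 and 3, and 414.4 CPM in F-cKO 2. Kdr, the VEGF receptor of vessels, had 5.79, 6.91 and 9.16 CPM in Ctrl and 97.5 CPM in F-cKO 2. Among pericyte genes, 7 of 8 were higher, including the receptor Pdgfrb with 5.51, 4.98 and 5.86 CPM in Ctrl and 43.2 CPM in F-cKO 2. The exception was the cytosolic regulator Rgs5, with 52.4, 63.6 and 72.5 CPM in Ctrl and 29 CPM in F-cKO 2. The sum of the 8 pericyte genes was 74.5 to 102.3 CPM in Ctrl and 205.5 CPM in F-cKO 2. RNA-seq called no endothelial gene higher and 5 of 14 lower, where 11.5% of all genes were called higher and 9.57% lower. In bulk tissue, fewer cells of a type and less RNA per cell cannot be told apart.

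Lists for meninges, microglia and Cajal-Retzius neurons were also mixed in F-cKO 2, with 6 of 13 meningeal genes more than 2-fold higher and 2 more than 2-fold lower. The genes given here were chosen after their values were seen. Among meningeal genes, Col1a1, a secreted collagen, had 22.9, 42.1 and 30.4 CPM in Ctrl and 87.7 CPM in F-cKO 2, and the transcription factor Foxc2 had 3.04, 4.59 and 2.65 CPM in Ctrl and 0.461 CPM in F-cKO 2. The sum over 13 meningeal genes was 147.1 to 258.1 CPM in Ctrl and 390.0 CPM in F-cKO 2. Among microglial genes, 7 of 14 were more than 2-fold higher and none more than 2-fold lower, and their sum was 30.4 to 42.5 CPM in Ctrl and 112.5 CPM in F-cKO 2. Of 9 genes that mark Cajal-Retzius neurons, 3 were more than 2-fold higher and 1 more than 2-fold lower, where 19.6% and 7.53% of all genes were. Their median log2 ratio in F-cKO 2 was 0.42. Among them, Reln had a log2 ratio of 3.98 and Calb2, a cytosolic calcium-binding protein, one of -1.17.

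Single members of lists of neural genes differed widely in F-cKO 2. Among radial glial genes, Notch1, a receptor that keeps progenitors undifferentiated, had 17.8, 16.6 and 14.5 CPM in Ctrl and 19.5, 253 and 15 CPM in F-cKO, while the cytosolic lipid-binding protein Fabp7 had 1719.9, 1664 and 1534 CPM in Ctrl and 1419.6, 982 and 1698 CPM in F-cKO. Over all 24 radial glial genes the median in F-cKO 2 was 0.34. At glutamatergic synapses, 11 of 27 genes were more than 2-fold higher in F-cKO 2, each of them a receptor subunit or metabotropic receptor. The AMPA receptor subunit Gria2 had 64.3, 91.5 and 82.1 CPM in Ctrl and 489.7 CPM in F-cKO 2. The scaffold Dlg2, which binds receptor tails from the cytosol, had 243, 227 and 258 CPM in Ctrl and 136, 89.3 and 264 CPM in F-cKO.

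Genes were also ranked by their level in F-cKO 2 against F-cKO 1 and 3. Of the 12 protein-coding genes highest in F-cKO 2, most encode receptors or matrix proteins: besides Reln, Kdr and Notch1 these were Hspg2, Nid1, Notch2, Itga6, Plxnb2, Ttyh1, Tmprss11a, Vmn2r120 and Car9. Hspg2, the basement membrane proteoglycan perlecan, had 5.95, 6.98 and 5.56 CPM in Ctrl and 6.08, 139.7 and 4.92 CPM in F-cKO. Car9 overlaps Arhgef39 and Tpm2 and varied among Ctrl libraries, with 17.4, 51.2 and 176 CPM, so its level is uncertain. The 12 lowest were Ubl5, Ndufs5, Nop10, Snrpf, Nutf2, the histone genes Hist1h4k, Hist1h3i and Hist3h2ba, and Clec4e, Diras2, Depdc1b and Fblim1. Ubl5, a ubiquitin-like splicing factor, had 609.8, 461 and 345 CPM in Ctrl and 335, 60.5 and 558 CPM in F-cKO. In RNA-seq, of 1581 protein-coding genes more than 2-fold above Ctrl in F-cKO 2 and tested there, 17.1% were called higher and 14.0% lower, against 17.6% and 10.6% of 9966 genes. Of 660 genes more than 2-fold below, 41.1% were called lower in RNA-seq.

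Without F-cKO 2, the ER lists together had a median near that of all genes, and they split both ways. Over their 237 genes the median log2 fold change was 1.29 with all 6 libraries and -0.1 without F-cKO 2, against 0.05 and -0.0 over all genes tested. Without F-cKO 2 it was -0.31 over the solute carriers, with 0 of 30 higher and 2 lower at an unadjusted p below 0.05, and 0.22 over the ER chaperones, with 4 of 27 higher and 0 lower, where 2.36% and 1.52% of all genes were. Without F-cKO 2, 82 of the 237 fold changes were positive and 155 negative, where 7137 and 7198 of all genes were. In F-cKO 1, 131 of the 237 genes were below every Ctrl library and 57 above, where 37.3% and 36.1% of all genes were. In F-cKO 3, 31 were below and 61 above, where 21.4% and 20.9% of all genes were. At an unadjusted edgeR p below 0.05, 15 of the 237 genes were higher and 0 lower with 6 libraries, where 1.58% and 0.635% of all genes were, and 9 were higher and 5 lower without it, where 2.36% and 1.52% of all genes were. Of the 237 genes, 18 lay above every Ctrl library in both F-cKO 1 and 3 and 21 lay below, where 8.84% and 9.22% of all genes were. Among the 49 secreted and matrix proteins 5 lay above and 0 below. Among these 5, the secreted factor Ptn had 194, 232 and 249 CPM in Ctrl and 364, 709.5 and 252 CPM in F-cKO. Its level in F-cKO 3 exceeded the highest Ctrl library by little. The log2 fold change of Ptn was 0.97 (SE 0.37) with 6 libraries and 0.45 (SE 0.18) without F-cKO 2, and neither passed adjustment. In RNA-seq, Ptn fell by 0.51 on the log2 scale (SE 0.09, edgeR adjusted p 0.00526). Fn1, the matrix protein fibronectin, had 24.4, 22.7 and 20.6 CPM in Ctrl and 44, 296 and 36 CPM in F-cKO. Its log2 fold change without F-cKO 2 was 0.82 (SE 0.15), which DESeq2 called (adjusted p 0.00261) and edgeR did not.

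Targets of the unfolded protein and integrated stress responses were mixed in F-cKO 2. The median log2 ratio over 22 of these genes was 0.41, with 8 above 2-fold and 2 below. Among them the cytosolic enzymes Asns, which makes asparagine, and Psat1, of serine synthesis, had log2 ratios of -1.21 and 0.26. The lipoprotein receptor Vldlr, made at the ER, had one of 2.19. Xbp1, the transcription factor of the unfolded protein response, had 79.3, 73.8 and 78.9 CPM in Ctrl and 93.2, 67.7 and 92.6 CPM in F-cKO.

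Genes of mitosis were high in F-cKO 1. Over 35 genes of mitosis and the kinetochore its median log2 ratio was 0.86, and 34 of them were above every Ctrl library, where 36.1% of all genes were. Mki67, the proliferation antigen Ki-67, had 236, 248 and 276 CPM in Ctrl and 550.3, 495 and 229 CPM in F-cKO. Cenpf, a kinetochore protein, had 133, 142 and 141 CPM in Ctrl and 293, 239.5 and 128 CPM in F-cKO. In both genes F-cKO 1 and 2 were above Ctrl and F-cKO 3 was just below it. Over the list, the median was 0.51 in F-cKO 2 and -0.17 in F-cKO 3, where 27 of 35 genes were below every Ctrl library, against 21.4% of all genes.

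DNA replication genes were high in F-cKO 1. Their median log2 ratio was 0.55 in F-cKO 1, 0.06 in F-cKO 2 and -0.04 in F-cKO 3. In F-cKO 1, 30 of 34 were above every Ctrl library, where 36.1% of all genes were. Scaled to the cytosolic and nuclear lists, the medians were 0.43, 0.49 and -0.08, so the level in F-cKO 2 depended on the scaling. Mcm3, a subunit of the replicative helicase, had 101, 98.5 and 107 CPM in Ctrl and 234, 157 and 95.1 CPM in F-cKO. Genes of intermediate progenitors, the dividing cells between radial glia and neurons, had medians of 0.41, 0.38 and -0.19 in the F-cKO libraries. Eomes, their defining transcription factor Tbr2, had 91.7, 96.9 and 85 CPM in Ctrl and 172, 127 and 79.8 CPM in F-cKO. Radial glial genes had medians of 0.33, 0.34 and -0.05.

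The group tests did not call any of these genes in Ribo-seq. At an unadjusted edgeR p below 0.05, 2 of 35 mitosis genes were higher with 6 libraries and 0 without F-cKO 2, where 1.58% and 2.36% of all genes were. Their median log2 fold change was 0.46 with 6 libraries and 0.47 without F-cKO 2. All 35 were positive in both fits, where 7925 and 7137 of all genes were. For Cenpf the log2 fold change was 0.66 (SE 0.29) with 6 libraries and 0.60 (SE 0.30) without F-cKO 2. Scaled to the cytosolic and nuclear lists, the mitosis median was 0.74 in F-cKO 1, 0.94 in F-cKO 2 and -0.2 in F-cKO 3, so its sign held in each.

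RNA-seq of the same genotypes did call them. All 35 mitosis genes rose in F-cKO (edgeR, adjusted p below 0.05), with a median log2 fold change of 0.72, where 11.5% of all genes were called higher. Top2a, the topoisomerase of dividing cells, rose by 0.98 on the log2 scale (SE 0.12, adjusted p 0.00293). Of 34 DNA replication genes 21 rose and none fell, and of 15 genes of intermediate progenitors 10 rose and none fell. RNA-seq Ctrl 3 was low for the mitosis list, with a median of -0.28 against 0.13 and 0.14 in Ctrl 1 and 2, and the F-cKO libraries had 0.67, 0.61 and 0.79. In RNA-seq F-cKO 3 was the highest for this list, in Ribo-seq it was the lowest. Markers of other tissue differed in the same RNA-seq fit. Of 16 tested genes of the ganglionic eminence and interneurons, 9 rose and none fell, with a median log2 fold change of 0.51. Of 14 meningeal genes 1 rose and 6 fell, with a median of -1.19, where 11.5% of all genes rose and 9.57% fell. The part of these tissue markers in the mitosis values was not tested. The labels do not tie an RNA-seq library to a Ribo-seq library of the same number, and the share of progenitors in each piece of tissue was not measured.

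**Figure D4:**
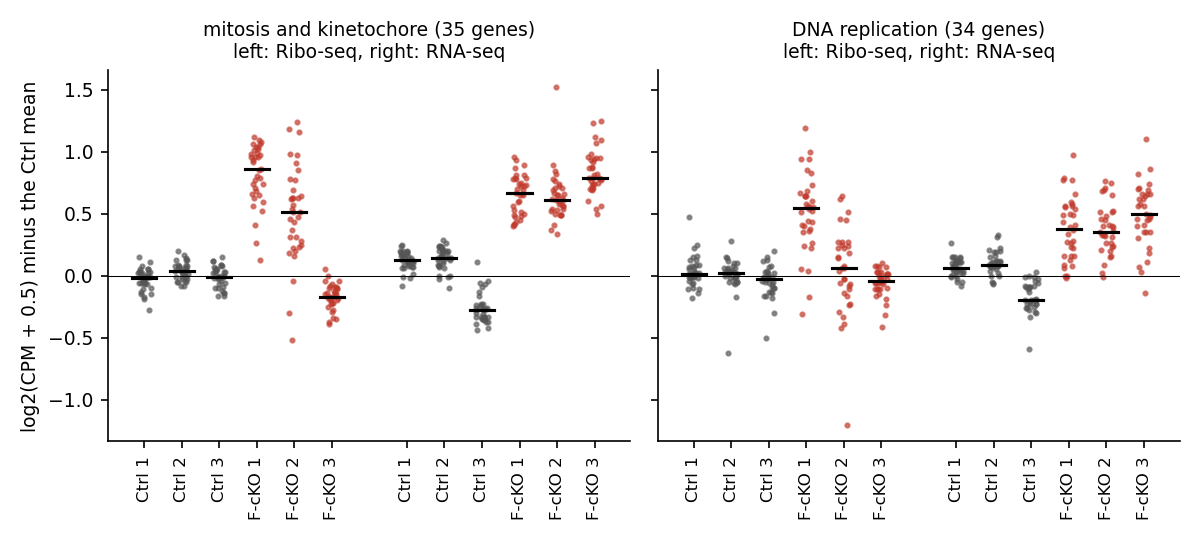
Log2 ratio of CPM to the Ctrl mean (0.5 CPM added) for each gene of mitosis and the kinetochore (35 genes, left) and of DNA replication (34 genes, right), in every Ribo-seq and RNA-seq library of Ctrl and F-cKO. Each point is 1 gene and each black line the median of a library. In Ribo-seq the mitosis medians of F-cKO 1, 2 and 3 are 0.86, 0.51 and -0.17, and in RNA-seq they are 0.67, 0.61 and 0.79.

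Lists of solute carriers, cytoskeleton, glutamate receptors and endothelium were low in F-cKO 1. Solute carriers of the plasma membrane had a median log2 ratio of -0.52 in it, with 26 of 30 below every Ctrl library, where 37.3% of all genes were. Cytoskeletal genes had -0.18 with 19 of 30 below, glutamate receptors and scaffolds -0.24 with 17 of 27 below, and endothelial genes -0.58 with 11 of 13 below. The transcription factor Mef2c had 637, 560.2 and 709 CPM in Ctrl and 347, 219 and 679.6 CPM in F-cKO. Dok5, an adaptor of upper-layer neurons, had 198, 189.8 and 216 CPM in Ctrl and 119.6, 70 and 217 CPM in F-cKO. For both genes F-cKO 1 and 2 were below Ctrl and F-cKO 3 was level with it. In RNA-seq, Mef2c fell by 0.68 on the log2 scale (SE 0.15, adjusted p 0.0135), and Dok5 fell by 0.68 (SE 0.15, adjusted p 0.0122). Of 141 protein-coding genes more than 2-fold below Ctrl in Ribo-seq F-cKO 1 and tested in RNA-seq, 63.8% were called lower there, and of 60 more than 2-fold above, 51.7% were called higher, against 10.6% and 17.6% of all 9966.

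Genes of cortical layers were high, low or level with Ctrl depending on the library. Over 12 deep-layer genes the median log2 ratio was 0.44 in F-cKO 1, -0.16 in F-cKO 2 and -0.04 in F-cKO 3. Sox5, which acts in early-born deep-layer neurons, had 136, 145 and 166 CPM in Ctrl and 282, 261 and 141 CPM in F-cKO, and it rose in RNA-seq by 0.88 on the log2 scale (SE 0.11, adjusted p 0.00307). Over 12 upper-layer genes the medians were 0.07, -0.67 and 0.03.

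F-cKO 3 was as close to Ctrl as the Ctrl libraries were to each other. Its Pearson's r with them was 0.991 to 0.994, and theirs with each other 0.987 to 0.992, against 0.967 to 0.974 for F-cKO 1 and 0.812 to 0.842 for F-cKO 2. It had 8 protein-coding genes more than 2-fold above Ctrl and 5 below, while its Fto level was 42.9 CPM against 187.8 CPM in the lowest Ctrl library. It lay above every Ctrl library for 20.9% of all genes and below every one for 21.4%.

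The m6A machinery is given by its levels, since edgeR called no gene with 6 libraries and Fto alone without F-cKO 2. Alkbh5, the other m6A demethylase, had 34.1, 33.7 and 29.7 CPM in Ctrl and 27.3, 37.3 and 28.3 CPM in F-cKO, with F-cKO 2 above and the others below Ctrl. Its log2 fold change was -0.07 (SE 0.18) with 6 libraries and -0.23 (SE 0.13) without F-cKO 2, and in RNA-seq it rose by 0.31 on the log2 scale (SE 0.08, adjusted p 0.0216). Mettl3, the catalytic subunit of the writer, had 37.9, 38.2 and 41.3 CPM in Ctrl and 38.7, 42.1 and 36.3 CPM in F-cKO, and its log2 fold change was -0.00 (SE 0.14), or -0.06 (SE 0.12) without F-cKO 2. Its partner Mettl14 had 48.6, 52.1 and 56.9 CPM in Ctrl and 73.6, 59.5 and 52.9 CPM in F-cKO.

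Of the 9 writer genes tested (Mettl3, Mettl14, Wtap, Virma, Zc3h13, Rbm15, Rbm15b, Cbll1 and Mettl16), 6 were above every Ctrl library in F-cKO 1, where 36.1% of all genes were. Rbm15b, which brings the writer to its targets, was the one writer with an unadjusted p below 0.05 without F-cKO 2: it had 49.4, 51.5 and 43.2 CPM in Ctrl and 65.7, 38.8 and 55.5 CPM in F-cKO, with a log2 fold change of 0.33 (SE 0.14). In RNA-seq 3 writers rose (Virma by 0.41, Zc3h13 by 0.22 and Rbm15 by 0.46 on the log2 scale) and none fell, where 11.5% of all genes rose and 9.57% fell.

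Of the 14 readers, 12 were above every Ctrl library in F-cKO 1 and none in F-cKO 3, where 36.1% and 20.9% of all genes were. The widest gap was in the Igf2bp proteins, which stabilise marked mRNAs. Igf2bp1 had 22.5, 26.4 and 23 CPM in Ctrl and 53.2, 57.6 and 20.5 CPM in F-cKO, and Igf2bp2 had 20.9, 21.4 and 24.6 CPM in Ctrl and 39.6, 52.9 and 18.3 CPM in F-cKO. Their log2 fold changes were 0.87 (SE 0.38) and 0.72 (SE 0.37) with 6 libraries, and 0.62 (SE 0.35) and 0.37 (SE 0.30) without F-cKO 2. With 6 libraries Igf2bp3 had 0.32 (SE 0.23), and without F-cKO 2 0.19 (SE 0.21). With 6 libraries Ythdf1, Ythdf2, Ythdf3, Ythdc1, Ythdc2, Hnrnpa2b1, Hnrnpc, Prrc2a, Fmr1, Rbmx and Srsf3 lay between -0.14 and 0.24, and without F-cKO 2 between -0.03 and 0.32. In RNA-seq 5 of the 14 readers rose, against the same 11.5% of all genes: Igf2bp2 by 0.81, Igf2bp3 by 0.61, Prrc2a by 0.31, Ythdf3 by 0.29 and Rbmx by 0.26 on the log2 scale. For the other AlkB-family enzymes the median log2 fold change over 7 genes was -0.0 with 6 libraries and 0.06 without F-cKO 2.

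Genes whose 3 F-cKO libraries all lay on one side of Ctrl were few: 524 above (3.66%) and 602 below (4.2%). Among the 8 high genes with the smallest p, 3 were snRNA genes. Gm25360, an snRNA gene (chromosome 1, 72226240 to 72226430, GRCm38), had 193, 308 and 231 CPM in Ctrl and 1024, 677 and 634 CPM in F-cKO. Its log2 fold change was 1.67 (SE 0.26; DESeq2 adjusted p 0.000262) with 6 libraries and 1.76 (SE 0.25) without F-cKO 2. Gm26110 had 5.87, 10.5 and 11.5 CPM in Ctrl and 36.2, 32 and 26 CPM in F-cKO, and Gm22973 had 87.2, 134 and 105 CPM in Ctrl and 371, 267 and 199 CPM in F-cKO. All 3 belong to multigene families with near-identical copies, so their reads could have been split between copies and each single level is uncertain. Gm26442, Gm24949 and Gm47283 completed the high side with Wdfy1 and Hbb-y.

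As classes, snRNA and snoRNA genes took a larger share of F-cKO counts in every library. The 59 snRNA genes took 0.115%, 0.146% and 0.126% of counts in Ctrl and 0.37%, 0.326% and 0.211% in F-cKO (exact permutation p = 0.1, without F-cKO 2 p = 0.2, each the smallest possible). The 97 snoRNA genes, guides of rRNA modification, took 1.11%, 1.09% and 1.43% in Ctrl and 3.14%, 2.22% and 1.54% in F-cKO (exact permutation p = 0.1, without F-cKO 2 p = 0.2). Both shares were lowest among F-cKO libraries in F-cKO 3, and for snoRNA it was close to the highest Ctrl library. With 6 libraries, 22 of 58 snRNA genes were higher at an unadjusted edgeR p below 0.05 and 1 was lower, where 1.58% and 0.635% of all genes were, and the median log2 fold change was 1.21. Without F-cKO 2 these counts were 25 and 2, where 2.36% and 1.52% of all genes were higher and lower, with a median of 0.97. For snoRNA genes they were 13 and 0 of 96 with a median of 1.04, and 33 and 1 of 97 with a median of 1.02. These RNAs are not translated, and how much of them rRNA depletion or size selection removed in each library was not measured.

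Of the 39 genes DESeq2 called without F-cKO 2, 34 were higher and 5 lower. The higher ones comprised 15 snRNA, 5 snoRNA, 5 pseudogenes, 5 protein-coding genes and 4 genes without a biotype. The pseudogene Gm22456 had 959, 1186 and 671 CPM in Ctrl and 4989, 551 and 2473 CPM in F-cKO, so F-cKO 2 was below Ctrl where the others were above. Snord37 went the same way, with 31.5, 36.6 and 51.8 CPM in Ctrl and 156, 13.6 and 88.2 CPM in F-cKO. Gm23680 and Gm25308, both snRNA genes, had log2 fold changes of 1.04 (SE 0.17) and 1.19 (SE 0.20) without F-cKO 2. The nuclear lncRNA Malat1, named after its values were seen, had 524, 744 and 711 CPM in Ctrl and 2122, 2108 and 729 CPM in F-cKO.

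Micro-RNA genes mostly had negative fold changes in both fits. Over 183 miRNA genes the median log2 fold change was -0.29 with 6 libraries, where 68 (37.2%) had a positive value, and -0.7 without F-cKO 2, where 24 were lower and 2 higher at an unadjusted p below 0.05, against 1.52% and 2.36% of all genes, and 16 (8.74%) had a positive value. Over all protein-coding genes 49.7% had a positive value in that fit. Their share of all counts was 1.79%, 2.31% and 1.01% in Ctrl and 1.05%, 1.38% and 1.48% in F-cKO, which overlap (exact permutation p = 0.5). Without F-cKO 2, 1267 genes of all kinds lay above Ctrl in both other F-cKO libraries (8.84%) and 1322 below (9.22%), and among the 8 low ones with the smallest p were the hairpin genes Mir15a and Mir744. Their mature sequences are shown to identify the reads that such counts could hold, in the direction 5′ to 3′ and with the seed, bases 2 to 8, in capitals. They come from RefSeq (GRCm38.p6, minus strand), at chr14:61632075-61632096 and chr14:61632038-61632059 for miR-15a and at chr11:65734799-65734820 and chr11:65734742-65734763 for miR-744.
mmu-miR-15a-5p: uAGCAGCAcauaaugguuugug
mmu-miR-15a-3p: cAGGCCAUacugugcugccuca
mmu-miR-744-5p: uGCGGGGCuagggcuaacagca
mmu-miR-744-3p: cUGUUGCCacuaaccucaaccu

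The 4 seeds differ from each other, and counts were given per hairpin gene, so the arms cannot be told apart. Mir15a had 3.51, 6.14 and 9.2 CPM in Ctrl and 0.648, 7.47 and 1.78 CPM in F-cKO, with F-cKO 2 inside the Ctrl range. Its log2 fold change without F-cKO 2 was -2.32 (SE 0.56), and DESeq2 called it (adjusted p 0.00765). Mir744 had 17.3, 21.9 and 17.8 CPM in Ctrl and 8.37, 14 and 12.1 CPM in F-cKO, all below Ctrl, and its log2 fold change without F-cKO 2 was -0.89 (SE 0.21). Mir9-3, from one of the 3 loci of a miRNA of neural progenitors, was also called lower by DESeq2, with 8.23, 10.8 and 19 CPM in Ctrl and 2.09, 17.3 and 5.1 CPM in F-cKO.

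**Figure D5:**
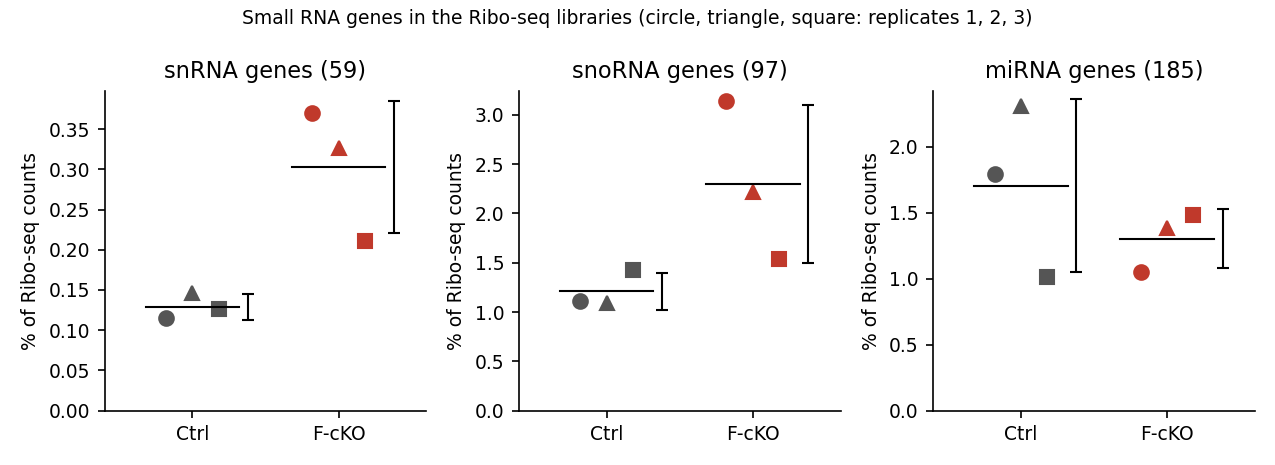
Percent of all Ribo-seq counts taken by snRNA (59), snoRNA (97) and miRNA (185) genes in each Ctrl and F-cKO library. Lines are means, bars are SDs (n = 3 libraries), and circles, triangles and squares are replicates 1, 2 and 3. The F-cKO libraries lie above all Ctrl libraries for snRNA (0.211% to 0.37% against 0.115% to 0.146%) and snoRNA (1.54% to 3.14% against 1.09% to 1.43%), and within the Ctrl range for miRNA.

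Among protein-coding genes on one side of Ctrl in all 3 F-cKO libraries, Wdfy1, an endosomal protein with a FYVE domain, had 4.36, 4.2 and 5.73 CPM in Ctrl and 12, 10.1 and 9.28 CPM in F-cKO (DESeq2 adjusted p 0.0273). It overlaps Mrpl44, and unless counting used the strand its reads cannot be told from those of that gene. Hist1h2ap, a histone H2A gene, had 78.2, 76.6 and 71.4 CPM in Ctrl and 37.4, 41.2 and 51 CPM in F-cKO, with a log2 fold change of -0.80 (SE 0.16) in 6 libraries and -0.77 (SE 0.16) without F-cKO 2, where DESeq2 called it (adjusted p 0.00856). Another histone gene, Hist1h3e, had 41.2, 40.6 and 33.6 CPM in Ctrl and 21.4, 22.9 and 29.8 CPM in F-cKO. Histone genes also have near-identical copies, and over the 53 replication-dependent histone genes tested the median log2 fold change was 0.08, with 0 higher and 3 lower at an unadjusted p below 0.05, where 1.58% and 0.635% of all genes were. Without F-cKO 2 it was 0.13, with 4 higher and 5 lower, where 2.36% and 1.52% of all genes were. Of the linker histones, Hist1h1d had 446, 391 and 382 CPM in Ctrl and 921, 495 and 442 CPM in F-cKO.

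Rab39b, a neuronal Rab GTPase, had 15.1, 18.2 and 16.4 CPM in Ctrl and 6.48, 7.65 and 11.8 CPM in F-cKO, all below Ctrl. The low side was completed by B230217O12Rik, A330069E16Rik, Gm35835 and A230056P14Rik. B230217O12Rik had 1.54, 1.45 and 2.09 CPM in Ctrl and 0.448, 0.461 and 0.83 CPM in F-cKO, and in RNA-seq it fell by 1.00 on the log2 scale (SE 0.18, adjusted p 0.00613). Without F-cKO 2, Rhno1, a DNA damage checkpoint protein, had a log2 fold change of -0.74 (SE 0.17; DESeq2 adjusted p 0.0373), with 11.5, 10.9 and 11.7 CPM in Ctrl and 6.93, 11.9 and 6.73 CPM in F-cKO. Slc4a5, Gm44190 and Gm9996 were the other low genes of that fit.

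Dopamine and reward signalling has been linked to Fto in the adult brain, and 4 of 8 listed genes were tested in this tissue. Ppp1r1b, the phosphatase inhibitor DARPP-32, had 31.5, 28.9 and 31.4 CPM in Ctrl and 22.1, 10.4 and 22.5 CPM in F-cKO, all below Ctrl. Its log2 fold change was -0.73 (SE 0.31) with 6 libraries and -0.45 (SE 0.13) without F-cKO 2, and neither passed adjustment. Its RNA-seq log2 fold change was -0.03 (SE 0.13). Drd1, the D1 dopamine receptor, had 1.92, 2.16 and 2.09 CPM in Ctrl and 1.3, 7.65 and 1.19 CPM in F-cKO, so that it was low except in F-cKO 2. Grin1, an NMDA receptor subunit, had 13.4, 10.1 and 12.2 CPM in Ctrl and 6.53, 33.1 and 12.4 CPM in F-cKO, and Kcnj6, a potassium channel, had 1.51, 1 and 1.37 CPM in Ctrl and 0.997, 0.922 and 1.9 CPM in F-cKO. Without F-cKO 2, 2 of the 4 were lower at an unadjusted p below 0.05 and none higher, where 1.52% and 2.36% of all genes were.

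Lists of p53 targets and immediate early genes had medians near that of all genes without F-cKO 2. Over 16 p53 targets the median log2 fold change was -0.16 with 6 libraries and -0.04 without F-cKO 2, and over 17 immediate early genes it was -0.06 and -0.0, against 0.05 and -0.0 over all genes.

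Some markers of blood, other tissue and sex differed among libraries of both groups. The embryonic globin Hbb-y had 0.384, 0.194 and 0.164 CPM in Ctrl and 8.77, 13.7 and 0.8 CPM in F-cKO, with a log2 fold change of 4.92 (SE 1.08; DESeq2 adjusted p 0.000627) with 6 libraries and 4.20 (SE 0.96) without F-cKO 2, and in RNA-seq it rose by 4.90 on the log2 scale (adjusted p 0.0126). Adult-type Hba-a1 did not follow it, with 238, 257 and 125 CPM in Ctrl and 169, 107 and 189 CPM in F-cKO, and the sum of the 9 erythroid genes was 244.0 to 510.3 CPM in Ctrl and 231.3 to 402.0 CPM in F-cKO. Ttr, the transthyretin of choroid plexus, had 438, 1894 and 557 CPM in Ctrl and 624, 1237 and 203 CPM in F-cKO. Albumin (Alb), a liver product, had 12.5, 0.194 and 14.9 CPM in Ctrl and 0.149, 0 and 8.71 CPM in F-cKO. The Y-linked gene Ddx3y had 19.3, 67 and 21.9 CPM in Ctrl and 65.8, 39.6 and 91.7 CPM in F-cKO, and Eif2s3y had 11.3, 39.5 and 13.1 CPM in Ctrl and 62.3, 39.7 and 61.4 CPM in F-cKO. The part of any of these in the differences above was not tested.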

How the data were processed

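Per the labels and the study's methods, Ribo-seq fragments were placed on mm10 by TopHat2 and assigned to genes by HTSeq, and HISAT2 2.0.5 aligned the RNA-seq reads. The deposited read counts, which are not normalised, were used. Per-gene RPKM deposited by the authors gave only relative gene lengths; FPKM deposited by the authors gave no value here. Rows blank in the other 8 Ribo-seq columns (40490 rows, 0.226% of the counts of F-cKO 1) were left out. Reference tables gave symbols for 14342 genes and biotypes for 13979.

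Genes passing filterByExpr (minimum count 10) were scaled by TMM and tested with edgeR 4.0.16 (quasi-likelihood, Benjamini-Hochberg, threshold 0.05). DESeq2 1.42.0 and limma 3.58.1 were alternatives. CPM used TMM library sizes, and log2 ratios added 0.5 CPM. Totals ranged from 10973699 to 35853227 counts in Ribo-seq and from 18504094 to 22592406 in RNA-seq. Exact permutation tests were two-sided. The study describes biological replicates, but the labels name no animals or litters, so p-values measure the spread between these libraries. The fit was tested on simulated counts with the same spread for all genes and libraries, so not on data with an outlying library. Protein classes planned from sequence were taken from gene lists. The members and the 52 lists were chosen with earlier results of these data known. Named genes were Fto, the 8 smallest p per direction among non-overlapping genes of each fit, the 12 most extreme protein-coding genes of F-cKO 2 per direction (mean at least 20 CPM), the m6A genes and up to 6 of the most abundant members of a list.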

Additional observations from a re-analysis of the deposited data

How the results depend on the processing

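With all 6 libraries, edgeR called 0 genes, DESeq2 called 6, a fit over all 9 Ribo-seq libraries 1 and limma voom with sample quality weights 1, and leaving out each library in turn gave 0 to 1 calls, the 1 call (Fto) without F-cKO 2. DESeq2 with each library left out, an alternative chosen after seeing the data, gave from 2 calls (without F-cKO 1) to 1100 (without F-cKO 3), with 4, 6 and 4 without Ctrl 1, 2 and 3 and 39 without F-cKO 2. Without F-cKO 2, edgeR called 1 gene, DESeq2 39 and the fit with a replicate block 0, and leaving out a further library gave 0 (without Ctrl 1, Ctrl 2 or F-cKO 1) to 811 (without F-cKO 3, where F-cKO 1 was the lone library and was assumed to vary like Ctrl). For Fto, the log2 fold change was -2.68 with DESeq2 (adjusted p 5.33e-16), -2.48 without F-cKO 2 (0.0358), -2.67 over all 9 libraries (0.0139) and -2.53 with quality weights (0.0274), against an adjusted p of 0.35 in the 6-library edgeR fit; it ranged from -2.81 to -2.48 with a library left out. RNA-seq calls numbered 3576, 2130 with a replicate block and 1543 to 3474 with a library left out, the lowest without Ctrl 3 (1543) and without F-cKO 2 (1960). The ER-list share differed by 1.15 points, and by -0.00852 to 1.74 with a library left out. The cause of these shifts was not tested. No source used here says that replicate numbers pair the Ribo-seq libraries. Same-numbered deviations correlated at 0.177, 0.221 and -0.283, and Ctrl 1 correlated best with F-cKO 3 (0.478). With so few libraries per group, and F-cKO 2 far from the others, these values cannot decide whether the numbers pair them. The block left 0 calls with 6 libraries. Other hydropathy thresholds, a split without the inner class and TMM over proteins of neither class were not run because protein sequences were not used here.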
